A study of Mus musculus with 10 samples.

Results

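The immediate early genes are the genes that a cell transcribes within minutes of a stimulus, without first having to make new protein. Most encode transcription factors. *Fos* and *Fosb* encode FOS proteins, which pair with the JUN proteins encoded by *Jun* and *Junb* to form AP-1, whereas *Egr1* encodes a zinc-finger factor and *Nr4a1* an orphan nuclear receptor. *Npas4* encodes a factor induced by calcium entry and largely restricted to neurons, *Arc* encodes a protein that acts at synapses, *Atf3* encodes a factor of the ATF/CREB family induced by stress and injury, and *Ier2* encodes a nuclear regulator of transcription. In hypothalamic neurons these transcripts are widely used as marks of recent activity, and they are also induced when tissue is cut and dissociated.

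The 10 members were taken by symbol from the 48397 genes of the count table, and all 10 were present. They were followed across the authors' cell clusters, with the plate as the replicate. The samples were 10 plates of single cells picked by hand from the paraventricular hypothalamus (PVH) of male mice older than 7 weeks. The mice were offspring of *Agrp-IRES-Cre* and *Ai9*, in which Cre from the *Agrp* locus switches on tdTomato. In the methods, the axons of AGRP neurons served to find the edge of the PVH. The labels instead call the picked cells tdTomato-labelled neurons. All plates come from mice of this single genotype, and the sources used name no difference of condition, stimulus or treatment between plates. Before picking, slices were kept for 50 minutes in pronase with the activity blockers TTX, APV and DNQX, which stop sodium spikes and fast glutamate transmission. Every value below was therefore taken after that incubation, and no unincubated sample is among those analysed here.

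Of 960 wells, 706 cells were in the table kept after quality control, and 664 of these belonged to the 12 PVH clusters, the clusters other than 5, 6 and 11. Plates carried 43 to 87 cells. Their names began with Q (4 plates), AL (2 plates) or JM (4 plates), and the Q plates are shown apart from the AL and JM plates throughout. These sets of plates are called batches here, and what the prefixes stand for is not given in the sources used. Total counts of unique molecular identifiers (UMIs) per cell ranged from 50646 to 1078101. The plate median ran from 188176 to 283709 on the Q plates and from 69514 to 127829 on the others, so that depth moved with the batch. Levels are given as UMIs of a gene per 1000000 UMIs (CPM) of the cells summed on a plate. The neuronal marker *Snap25* was found in 98.2% of PVH cells, and the PVH markers *Sim1* in 59.9% and *Oxt* in 98.8%. The astrocyte marker *Aqp4* was found in 5 of 664, and any of 5 astrocyte markers in 32. Any of 7 oligodendrocyte markers was found in 245 of the 664 cells, led by *Mbp* (32.7%). The 4 genes listed as arcuate markers, *Agrp*, *Npy*, *Pomc* and *Cartpt*, summed to 364 to 880 CPM on the Q plates and 46.9 to 151 CPM on the others. Any of them was found in 396 of the 664 PVH cells, and whether the transcripts came from arcuate tissue was not tested. In the batch test below *Pomc* (log2 fold change 2.32) and *Cartpt* (2.47) passed. *Agrp* did not (0.08, SE 1.21), and *Npy* was not tested.

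All members were found in PVH cells, in shares that ran from 1.05% of the 664 cells for *Atf3* (95% exact interval 0.425% to 2.16%) to 84.5% for *Jun* (81.5% to 87.2%). *Fos* was detected in 484 cells (72.9%), *Junb* in 460, *Egr1* in 333 and *Fosb* in 301. *Npas4* was found in 206 cells, *Nr4a1* in 160, *Ier2* in 155, *Arc* in 76 and *Atf3* in 7. A cell counted here with at least 1 UMI, and the intervals cover counting error only. No member was found in 18 PVH cells (2.71%), and 287 cells (43.2%) held 5 or more members, up to 9. In the column of each plate that held no cell of the table, 40 wells had under 1000 UMIs and are called wells without RNA here. Together they carried 13 UMIs of the members, with at most 2 in a well, and 11 of them had such a UMI. They were picked for their low totals, so they give no background level for the cells, which held 50646 UMIs or more.

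Within a plate, the UMIs of a member were unevenly spread over cells. The tenth of cells with the highest CPM held a median over plates of 41.6% of the summed *Fos* CPM and 36.4% of that of *Jun*. For *Npas4* this share was 89.4%, for *Ier2* 90.0% and for *Arc* 99.7%. A member found in few cells has a high share by construction. *Npas4* was found in 31.0% of all PVH cells, *Ier2* in 23.3% and *Arc* in 11.4%. The shares therefore do not tell apart low detection and uneven level among the cells that held a member. Correlation among cells of the same cluster and plate was examined for *Fos*, *Fosb*, *Jun*, *Junb* and *Egr1*, the 5 members found in most cells. Over the cells of cluster 1, the largest cluster with 221 cells, all 10 pairs of these had a positive median of Spearman's rho over plates, from 0.29 to 0.64, and 5 of the pairs were negative on 1 or 2 plates, down to -0.45 for *Fos* and *Jun*. In that cluster rho between *Fos* and *Fosb* had a median of 0.64 over the 10 plates and was positive on all of them, from 0.41 to 0.79. Between *Jun* and *Junb* the median was 0.31, with a positive value on 8 plates. These correlations are descriptions over cells that share a library, and depth per cell was not held equal.

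Of the 4 members that passed the batch test below, *Fos*, *Fosb* and *Nr4a1* are shown with their promoters. *Jun*, whose difference had the opposite sign and did not pass, is shown beside them. They were picked because the first 3 hold the exact letters of a short motif that *Jun* lacks. The contrast is therefore one of choice, and a link between the motif and the differences was not tested. RefSeq promoter sequences (GRCm38.p6) were found for 7 members, and the 250 bases before the annotated start are printed here for these 4, 5′ to 3′ on the gene's strand, with bases that overlap an annotated exon left out. Capitals mark TGACG on either strand, where it reads CGTCA on the reverse. TGACG is the half-site bound by CREB and ATF factors, which carry calcium and cyclic AMP signals to these genes.
Fos, chr12:85473640-85473889, plus strand: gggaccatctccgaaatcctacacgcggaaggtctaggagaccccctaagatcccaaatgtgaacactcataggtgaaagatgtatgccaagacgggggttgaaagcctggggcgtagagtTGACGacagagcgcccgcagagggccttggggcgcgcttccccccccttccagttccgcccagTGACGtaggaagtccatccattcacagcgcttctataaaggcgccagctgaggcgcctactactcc
Fosb, chr7:19310052-19310295, minus strand: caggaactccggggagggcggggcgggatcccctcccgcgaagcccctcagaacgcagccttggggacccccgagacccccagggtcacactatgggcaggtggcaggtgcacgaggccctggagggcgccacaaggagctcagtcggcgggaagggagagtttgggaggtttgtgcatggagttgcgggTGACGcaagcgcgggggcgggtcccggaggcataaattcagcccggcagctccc
Nr4a1, chr15:101266596-101266845, plus strand: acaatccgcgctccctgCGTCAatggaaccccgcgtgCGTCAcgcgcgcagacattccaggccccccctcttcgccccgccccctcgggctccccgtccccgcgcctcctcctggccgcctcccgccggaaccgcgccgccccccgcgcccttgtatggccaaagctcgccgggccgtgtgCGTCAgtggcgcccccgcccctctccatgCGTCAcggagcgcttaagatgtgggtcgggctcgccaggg
Jun, chr4:95052223-95052472, minus strand: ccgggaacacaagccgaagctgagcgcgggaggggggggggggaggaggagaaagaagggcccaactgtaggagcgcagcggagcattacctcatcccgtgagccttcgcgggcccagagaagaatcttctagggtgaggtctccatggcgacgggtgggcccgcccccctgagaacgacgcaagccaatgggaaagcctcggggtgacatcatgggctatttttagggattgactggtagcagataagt

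TGACG was searched in the whole window of the table, which runs from 250 bases before the start to 50 after it. With bases that overlap an annotated exon left out, it was found in 4 of the 7 members in the table, *Fos*, *Fosb*, *Nr4a1* and *Junb*. With those bases included it was found in 6, *Jun* being the one without it. Over all 32851 promoters of the table, of the same length and with such bases included, 20.8% held it. In *Fos* it lay 129 and 66 bases before the start, in *Fosb* 60 bases before it, and in *Nr4a1* at 4 places from 233 to 40 bases before it. In *Junb* it lay 106 bases before the start. In *Npas4*, whose window overlaps an annotated exon from near its 5′ end and is therefore not printed, and in *Atf3*, it lay within such bases only. The full palindrome TGACGTCA was in none of the 7 (1.79% of all promoters), and neither was the AP-1 motif TGANTCA (7.81%) or the CArG box bound by SRF (1.63%). GCGNGGGCG, the EGR1 motif, was in *Fosb* and *Nr4a1* (5.55% of all promoters). These are matches of exact letters in a short window and not measured binding. Variants of the motifs and sites outside the window were not searched, and no sequence was found for *Egr1*, *Arc* and *Ier2*. *Junb*, which held TGACG too, did not pass the batch test below.

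*Fos*, *Fosb*, *Npas4* and *Nr4a1* were higher on the Q plates, whereas *Jun*, *Egr1*, *Junb*, *Arc* and *Ier2* did not differ beyond the test's threshold. The comparison asks whether the members stood at one level in plates for which the sources used name no difference of condition. It was made on UMIs summed per plate over PVH cells with edgeR's quasi-likelihood test on all 14334 genes that passed the filter on low counts, with Benjamini-Hochberg adjustment. The labels and the methods name different sequencers and library kits, and neither says which plates used which. *Atf3* did not pass that filter, and 9 members were tested. Of all genes tested, 22.7% differed between the batches, 11.6% being higher on the Q plates and 11.1% lower. Of the members, 4 of 9 were higher and none was lower. The median log2 fold change of the members was 0.82, against -0.04 over all genes tested.

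*Fos* (chromosome 12, 85473890 to 85477273, GRCm38) stood at 333, 589, 727 and 606 CPM on plates Q5 to Q8. On the other plates it stood at a lowest 142, a median 154 and a highest 270 CPM, the highest being plate AL5. The batches did not overlap, and the means were 563 ± 166 CPM (SD, n = 4) and 177 ± 49.4 CPM (SD, n = 6). The log2 fold change was 1.88 (SE 0.20, edgeR adjusted p = 1.32e-05). Where *Fos* was detected, the cell held a median of 116 UMIs on the Q plates and 21 on the others.

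*Npas4* (chromosome 19, 4984355 to 4990316) showed the largest fold of the members. It stood at 27.3, 69.9, 28.2 and 70.5 CPM on plates Q5 to Q8 and at 1.06 to 12.7 CPM on the AL and JM plates, with a median of 8.89. The batches did not overlap. The log2 fold change was 2.94 (SE 0.50, edgeR adjusted p = 0.000497).

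*Fosb* (chromosome 7, 19302696 to 19310051) stood at 50.7, 68.4, 102 and 51.1 CPM on the Q plates and at 18.7 to 50.4 CPM on the others, so that the nearest plates, Q5 and JM6, were almost level. Its log2 fold change was 1.24 (SE 0.25, edgeR adjusted p = 0.00195). *Nr4a1* (chromosome 15, 101254269 to 101274795) stood at 14.4, 17.8, 25.7 and 14.6 CPM on the Q plates. On the others it ran from 0.242 CPM on JM5 to 12.5 CPM on AL5, also without overlap. The log2 fold change of *Nr4a1* was 1.77 (SE 0.60, edgeR adjusted p = 0.0433). This call is the least secure of the 4, since it was lost in 7 of 10 fits that left out a plate (Q5, Q6, Q7, Q8, JM6, JM7 or JM8), and with total UMIs in place of TMM scaling (adjusted p = 0.0675). Among all genes tested, 6.03% had every Q plate above every other plate.

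*Jun* (chromosome 4, 95049034 to 95052222) lay in the other direction. It stood at 93.9, 166, 187 and 159 CPM on the Q plates and at 142 to 313 CPM on the others, with overlap at AL6, the lowest of the AL and JM plates. Its log2 fold change of -0.44 (SE 0.19, edgeR adjusted p = 0.114) did not pass, but did so without plate AL6 (adjusted p = 0.0298) and with total UMIs only (0.0313), a scaling that moved the median of all genes to -0.26. *Junb* (chromosome 8, 84974484 to 84978718) was at 207 ± 89.9 CPM (SD, n = 4) on the Q plates and 134 ± 50.0 CPM (SD, n = 6) on the others. Its log2 fold change was 0.82 (SE 0.31, edgeR adjusted p = 0.0678), and it passed without plate Q5 (adjusted p = 0.0259). *Jun* overlaps *Junos* and *Junb* overlaps *Prdx2* on the opposite strand, and the sources used here do not state whether counting used the strand.

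*Egr1*, *Arc* and *Ier2* showed no difference that the test could call. *Egr1* was at 68.0 ± 30.5 CPM (SD, n = 4) on the Q plates and 88.5 ± 19.0 CPM (SD, n = 6) on the others, with a log2 fold change of -0.18 (SE 0.25, edgeR adjusted p = 0.679) whose sign turned when cells were thinned to equal UMIs. *Arc* was at 8.12 ± 2.57 and 6.22 ± 2.73 CPM (log2 fold change 0.60, SE 0.43, edgeR adjusted p = 0.365). *Ier2* was at 20.1 ± 7.18 and 20.4 ± 5.33 CPM (log2 fold change 0.18, SE 0.29, edgeR adjusted p = 0.717). *Atf3* was at 0 on 6 plates and reached 3.58 CPM on AL5.

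**Figure D1:**
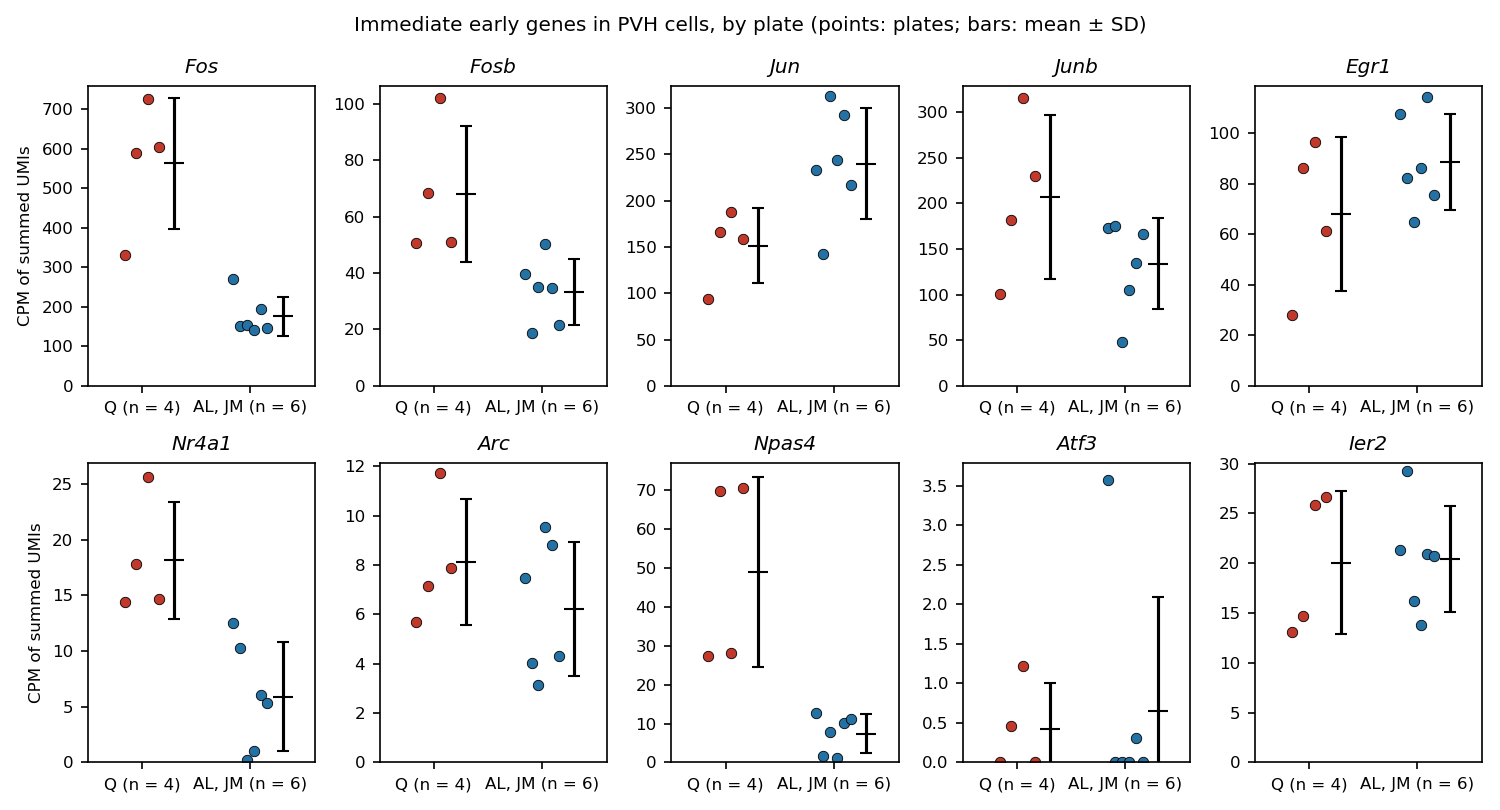
Level of each member in PVH cells, as CPM of the UMIs summed per plate (linear axes from 0), for 4 Q plates and 6 AL and JM plates, with bars for the mean and SD. The 4 Q plates lie above all others for Fos, Fosb, Nr4a1 and Npas4, and the 2 sets overlap for Jun, Junb, Egr1, Arc, Atf3 and Ier2.

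The shares of cells with a member, taken from the same plates and counts, gave the same 4 genes. This test was run on the members only, so the share of all genes that would pass is not known. *Npas4* was detected in a mean of 52.5% of PVH cells on the Q plates and 12.2% on the others, a gap of 40.2 percentage points (exact two-sided permutation test over the 210 ways to choose 4 of 10 plates, p = 0.00476, the smallest it can give, and 0.0238 after Benjamini-Hochberg adjustment over the 10 members). *Fos* was detected in 88.4% and 58.3% (exact permutation test, adjusted p = 0.0357), *Fosb* in 58.7% and 33.7% (adjusted p = 0.0317) and *Nr4a1* in 35.7% and 13.1% (adjusted p = 0.0238). The *Fos* share did not pass once any 1 of the Q plates Q5 to Q8 was left out, nor when 3 UMIs were asked for (exact permutation test, adjusted p = 0.0595 each). Within cluster 1 the *Nr4a1* share did not pass (exact permutation test, adjusted p = 0.381), and for Q against JM plates alone *Junb* and *Ier2* passed as well (exact permutation test, adjusted p = 0.0476 each). *Jun* was found in 84.2% and 83.8% of cells. A PVH cell held a mean of 4.85 ± 0.33 members on the Q plates (SD, n = 4) and 3.44 ± 0.68 on the others (SD, n = 6, exact permutation test, p = 0.0143).

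Shares depend on depth, which was higher on the Q plates. With each cell thinned to 63046 UMIs, which makes UMIs equal but not captured molecules and leaves out 71 shallower cells of the table, 70 of them on AL and JM plates, *Npas4* alone passed, at 45.1% and 7.72% of cells (exact permutation test, adjusted p = 0.0476). *Fos* was then at 82.7% and 56.8% (exact permutation test, adjusted p = 0.0571). *Jun* was 10.1 points lower on the Q plates (exact permutation test, adjusted p = 0.0571), and the difference in members per cell was 0.84 (exact permutation test, p = 0.0571). The 4 edgeR calls were the same in the thinned cells.

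The column of each plate that held no cell of the table was read as well. In that column 4 wells per plate held RNA, with 35402 to 312891 UMIs, and *Snap25* came to 5 UMIs in the 40 such wells. What was put into them is not given in the sources used here, and they were taken as control wells from this layout after the data had been seen. *Fos* in these wells was at 100, 51.1, 129 and 76.4 CPM on plates Q5 to Q8 and at 81.8 to 250 CPM on the others, so that it was not higher on the Q plates. The means were 89.1 ± 33.2 CPM (SD, n = 4) and 165 ± 60.4 CPM (SD, n = 6, exact permutation test, p = 0.0571, adjusted over 10 members 0.286). The PVH cells of a plate stood at 3.31 to 11.5 times the *Fos* CPM of its control wells on the Q plates and at 0.621 to 1.79 times on the others. This log2 ratio differed by 2.53 between the batches, without overlap (exact permutation test, p = 0.00476, adjusted 0.0238 over the 5 members found in the control wells of every plate). The ratio takes up the *Fos* levels of the cells, whose batches did not overlap on their own, so it is not separate evidence. The share of all genes that would pass was not computed. The ratio was also higher on the Q plates for *Junb* (difference 1.17, exact permutation test, adjusted p = 0.0238) and *Ier2* (difference 1.18, adjusted p = 0.0238), with overlap for both. For *Ier2* the cells were level, at 20.1 and 20.4 CPM, and the control wells were at 297 and 702 CPM. For *Junb* the control wells were at 281 and 391.9 CPM. It did not differ beyond the threshold for *Jun* (-0.51) or *Egr1* (-0.34), each at an adjusted p of 0.505 in the exact permutation test. *Npas4* gave 1 UMI in all 40 control wells.

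**Figure D2:**
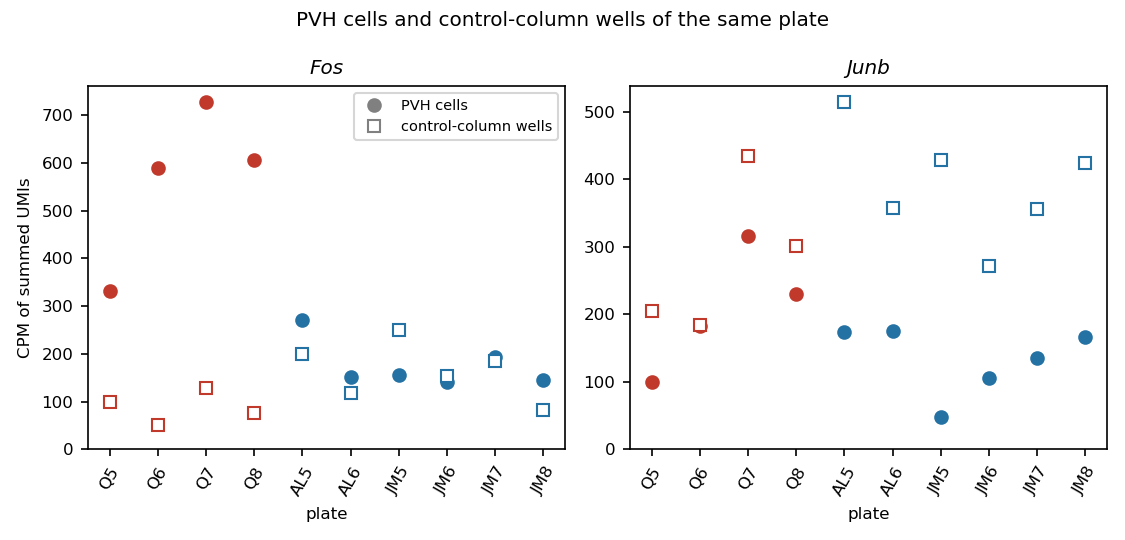
Fos and Junb in PVH cells (filled circles) and in the control-column wells of the same plate (open squares), as CPM of summed UMIs on linear axes, with Q plates in red and AL and JM plates in blue. On the Q plates the Fos of the cells lies above that of the control wells by 3.31 to 11.5 times, and Junb in cells lies at or below its control wells on all 10 plates.

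The mix of clusters differed between the batches as well, and cannot be held equal for clusters found in 1 batch only. Cluster 8 had 40 of its 42 cells on the Q plates, and clusters 4, 12 and 13 had none there. Within cluster 1, present on all plates, 1 of 9 members passed, where 11.1% of the 11885 genes tested did. *Fos* was at 403, 412, 752 and 295 CPM on plates Q5 to Q8 and at 23.0 to 206 CPM on the others, without overlap. Its log2 fold change in cluster 1 was 1.86 (SE 0.38, edgeR adjusted p = 0.00311), close to that in all PVH cells, and the call was lost when no low-count filter was used (adjusted p = 0.0603). *Npas4* (log2 fold change 2.00, adjusted p = 0.0648) and *Jun* (-0.74, adjusted p = 0.0723) fell short in the same edgeR fit. *Arc* had a log2 fold change of -2.50 (SE 1.43, adjusted p = 0.330) in cluster 1 against 0.60 in all PVH cells.

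No member's batch difference was shown to differ between cluster 1 and the other PVH cells. Those other cells were pooled, and their mix of clusters differed between the batches, so this contrast does not hold the mix equal. The edgeR test of the difference in cluster 1 minus that in the other PVH cells called 2 of 14341 genes (0.0139%), neither of them a member, and 746 genes were at an unadjusted p under 0.05. *Arc* came nearest among the members (-4.26 on the log2 scale, SE 1.78, unadjusted p = 0.0287, adjusted 0.919). In fits of cluster 7, 10 or 15 alone, added after the data had been seen, no member passed, where 2.97%, 0.738% and 1.03% of the genes tested did. The log2 fold change of *Fos* was 0.85 in cluster 7, 0.55 in cluster 10 and -0.16 in cluster 15, with SEs of 0.42, 0.38 and 1.02.

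**Figure D3:**
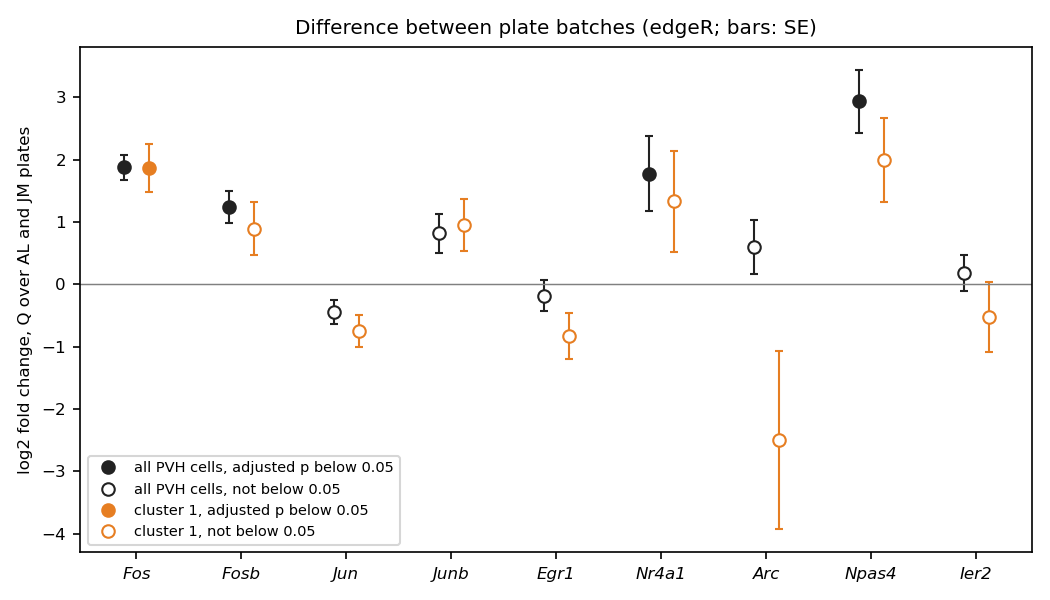
Log2 fold change of the 9 tested members, Q plates over AL and JM plates, in all PVH cells (black) and in cluster 1 (orange), with bars for the SE from edgeR and filled points for adjusted p below 0.05. Fos is near 1.9 in both fits, and Arc is at 0.60 in all PVH cells and at -2.50 in cluster 1 with an SE of 1.43.

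Across clusters, the Crh neurons of cluster 10 held the highest level of most members. Since the authors formed the clusters from the genes of these same cells, levels by cluster are a description, without a test. A member was counted as higher or lower in a cluster when it was so in every plate with at least 3 cells of that cluster, against the other PVH cells of the plate, over at least 4 plates. A sum without a UMI counted as lower where the other cells held the member. For a member of low level, a sum of few cells can give this by sampling alone. The shares of all genes set beside these counts were not matched for level. Clusters are given by the authors' number, with the peptide gene (*Oxt*, *Avp*, *Crh*, *Trh*, *Sst*, *Penk* or *Pdyn*) whose share of UMIs most exceeded that in the other PVH cells. In cluster 10 this was *Crh*, which encodes corticotropin-releasing hormone, at 28.8 times. Of the 12 PVH clusters, cluster 10 had the highest mean CPM for 7 of 10 members, and it was first or second for 9. The clusters have different mixes of Q and other plates, so the order was also taken within each batch, a step added after the data had been seen. Cluster 10 was then the highest for 9 of 10 members both among the 8 clusters with at least 2 Q plates and among the 9 clusters with at least 2 AL or JM plates, the exception being *Atf3*.

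In cluster 10, 6 of 10 members were higher in all 7 plates, *Fos*, *Fosb*, *Junb*, *Egr1*, *Arc* and *Ier2*, where 1.2% of the 16483 genes counted were. *Fos* was found in 62 of 62 cells. It stood at 681, 1650, 1632 and 1291 CPM on plates Q5 to Q8 and at 1551, 511 and 968 CPM on AL5, JM6 and JM8, against 323, 467, 686, 491, 223, 127 and 52.9 CPM in the other PVH cells of those plates. The mean was 1184 ± 468 CPM (SD, n = 7) against 339 ± 224. In this cluster the batches overlapped, at 1314 ± 453 CPM on 4 Q plates and 1010 ± 521 CPM on the 3 others.

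The larger ratios belonged to other members. *Egr1* was at 349 ± 220 CPM in cluster 10 and 58.4 ± 23.4 CPM in the other PVH cells of the same plates, a ratio of means of 5.98. *Junb* was at 787 ± 499 against 133 ± 80.6 CPM, with its highest values on AL5 (1632 CPM) and JM8 (1264 CPM). *Arc* was at 44.8 ± 21.4 against 5.22 ± 3.56 CPM, and *Ier2* at 93.3 ± 50.7 against 15 ± 7.39 CPM. *Fosb* was at 150 ± 125 against 49.5 ± 22.1 CPM. *Npas4* (137 ± 85.3 against 22.0 ± 20.6 CPM) and *Nr4a1* (67.4 ± 83.5 against 10.3 ± 6.71 CPM) were higher in 6 of 7 plates, and the exception was JM6, where 3 cells held neither. *Jun* was higher in 6 of 7 plates, and lower on Q5 (59.9 against 94.8 CPM). *Atf3* was found in 0 of the 62 cells. For a count of 0, here and below, the upper limit is 3 cells of the total, which is 4.84% for these cells, and the exact 95% interval reaches 5.78%.

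**Figure D4:**
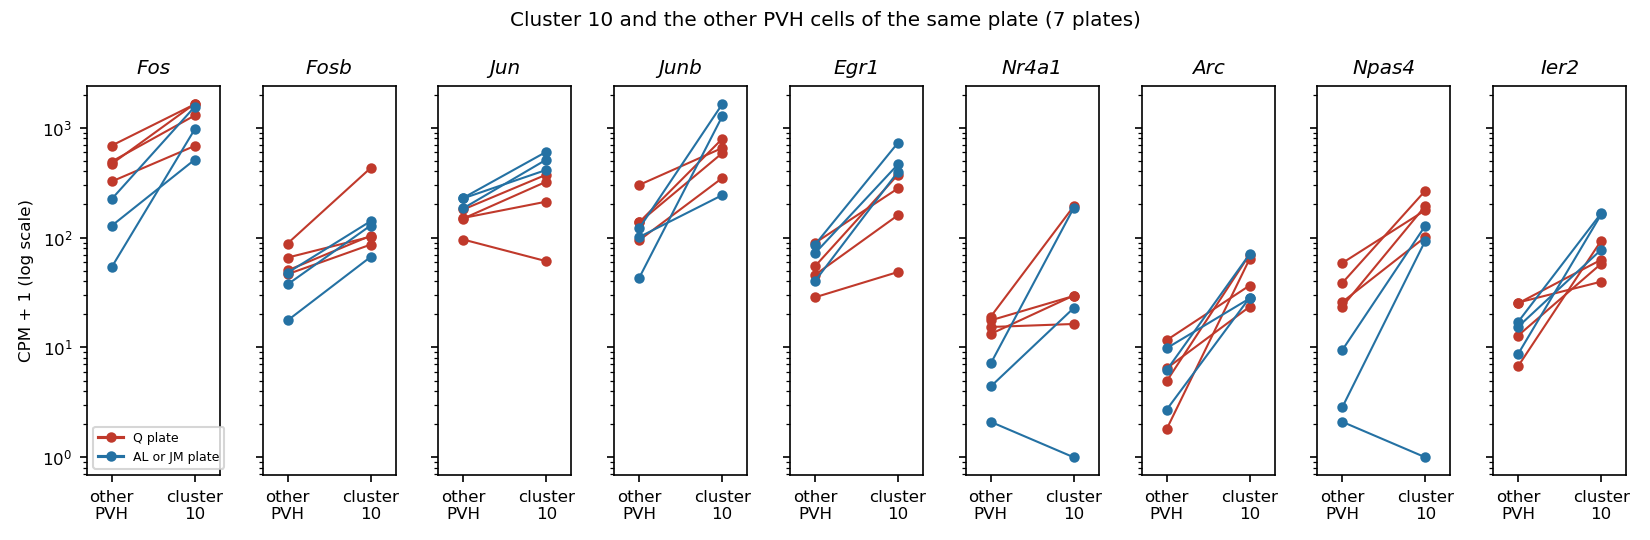
Members in cluster 10 and in the other PVH cells of the same plate, as CPM + 1 on a log axis, with a line for each of 7 plates (red for Q, blue for AL or JM). All 7 lines go up for Fos, Fosb, Junb, Egr1, Arc and Ier2, and for Jun, Nr4a1 and Npas4 a single line goes down.

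The somatostatin clusters differed from each other. Cluster 8 had higher *Fos* (887 ± 245 CPM, SD, n = 4) and *Fosb* (154 ± 94.8 CPM) in all 4 of its plates, which were Q plates, than the other PVH cells there (534 ± 146 and 59.3 ± 18.2 CPM), where 3.28% of genes were higher. Among clusters on Q plates its *Fos* followed that of cluster 10, and the gap to the next, cluster 1 at 465.7 ± 198 CPM (SD, n = 4), was 421 CPM, less than the summed SDs of 443 CPM. In cluster 7, the other *Sst* cluster, *Arc* was found in 0 of 35 cells (upper limit 8.57%), and *Npas4* was at 4.77 ± 8.07 CPM (SD, n = 8) against 29.7 CPM in the other PVH cells. Both were lower in all 8 plates, where 7.34% of genes were, and *Npas4* too had sums without a UMI. *Fos* itself was at 343 ± 192 CPM in cluster 7 and was found in 33 of 35 cells.

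In cluster 3, an *Avp* cluster of the AL and JM plates, *Jun* was at 471 ± 223 CPM (SD, n = 5) against 192 ± 32.1 CPM in the other PVH cells. On AL and JM plates cluster 10 had a higher mean still, 508 ± 95.4 CPM (SD, n = 3). *Fosb* was at 89.0 ± 26.3 against 26.3 ± 10.5 CPM. Both were higher in all 5 plates, where 3.22% of genes were, and *Jun* was found in 36 of 36 cells. In cluster 2, the other *Avp* cluster, *Jun* was higher in 5 of 5 plates (217 ± 80.7 against 154 CPM) and *Junb* lower (140 ± 67.3 against 209 CPM), where 2.5% and 13.5% of genes were. Cluster 1, the *Oxt* cluster, had no member on the same side in all of its 10 plates, where 1.46% of genes were higher and 4.06% lower.

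Low levels were seen in clusters 9 and 12. In cluster 9, a *Trh* cluster with 25 cells, *Fos*, *Jun*, *Junb*, *Nr4a1* and *Ier2* were lower in all 4 plates, but so were 20.5% of all genes. *Jun* was at 40.2 ± 30.4 CPM (SD, n = 4) there against 175 ± 59.3 CPM, and *Ier2* was found in 0 of 25 cells (upper limit 12%). *Npas4* was not low in cluster 9, at 54.8 ± 36.9 against 33.2 ± 25.3 CPM, and on Q plates its mean was second to that of cluster 10 (73.0 and 184 CPM). In cluster 12, with 35 cells that all came from AL and JM plates, *Fos*, *Fosb*, *Nr4a1*, *Arc* and *Npas4* were lower in all 6 plates, where 7.87% of genes were. All of these but *Fos* had sums without a UMI. *Fos* was at 65.3 ± 20.7 CPM (SD, n = 6) against 188 ± 50.7 CPM in the other cells of those plates. This was the lowest mean of those 9 clusters with at least 2 AL or JM plates, but cluster 15 was lower on each JM plate (53.2, 52.1, 15.3 and 29.2 CPM against 84.2, 75.0, 26.8 and 58.0 CPM on JM5 to JM8) and had a higher mean through AL5 (361 CPM). In cluster 12 *Npas4* was found in 0 of 35 cells (upper limit 8.57%). *Jun* in cluster 12, at 173 ± 112 against 248 ± 61.2 CPM, was lower in 4 of 6 plates.

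**Figure D5:**
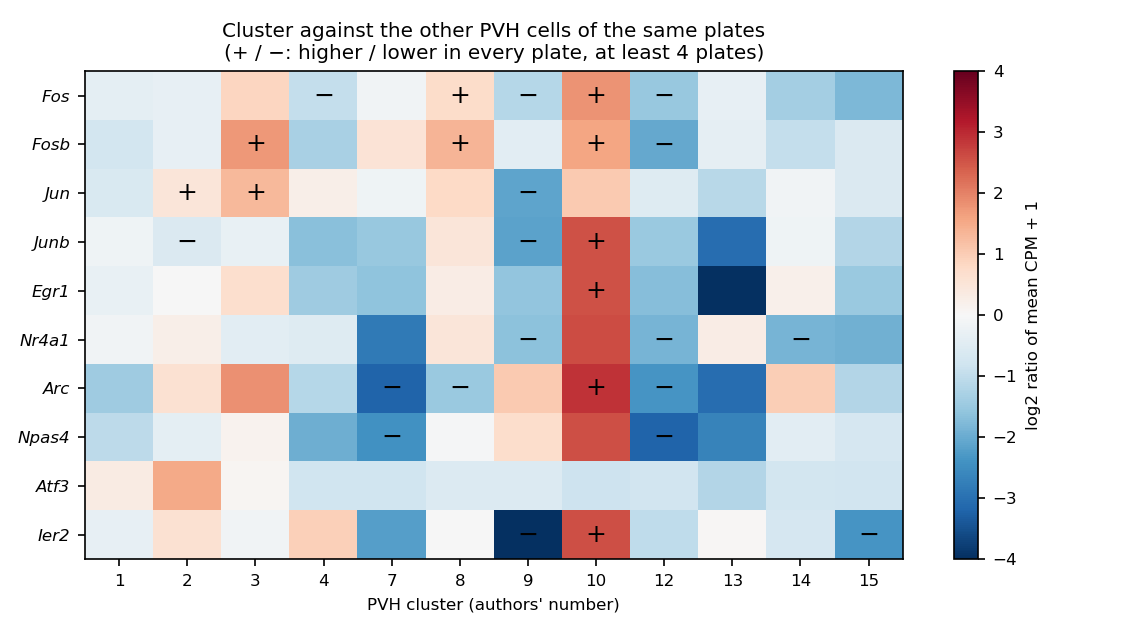
Log2 ratio of the mean CPM + 1 of each member in a PVH cluster to that in the other PVH cells of the same plates, with colours that end at -4 and 4 and with + and − for members higher or lower in every plate. Cluster 10 carries 6 plus signs, clusters 9 and 12 carry 5 minus signs each, and cluster 1 carries none.

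Most neighbouring clusters could not be ordered. On the Q plates the *Fos* means ran from cluster 10 over clusters 8, 1, 2, 7, 9 and 15 to cluster 14, and only the step from cluster 9 to cluster 15 (284 ± 93.8 to 91.4 ± 75.4 CPM, SD, n = 3 each) exceeded the summed SDs of the neighbours. On the AL and JM plates they ran from cluster 10 over clusters 3, 7, 13, 1, 14, 15 and 4 to cluster 12, and only the step from cluster 10 (1010 ± 521 CPM, SD, n = 3) to cluster 3 did. Over all members there were 6 such steps on the Q plates and 4 on the AL and JM plates. Cluster 10 lay above the step for *Junb* and *Npas4* on the Q plates and for *Fos*, *Junb*, *Egr1* and *Ier2* on the others. Cluster 13, with 3 plates, gave values only, with *Egr1* at 4.12 ± 3.65 CPM (SD, n = 3) and with *Arc* and *Npas4* in 0 of 16 cells (upper limit 18.8%). Over clusters and plates together, 11 pairs of member and cluster were higher in every plate and 17 were lower. With at least 5 cells per sum there were 9 and 4 such pairs, 7 and 3 of them shared with these. Q plates alone gave 11 and 13 pairs (9 and 4 shared), and AL and JM plates alone gave 2 and 10, all of them shared. With 1 plate left out, 11 to 25 pairs were lower, the lowest number without Q5. The lower ones not yet named were *Fos* in cluster 4 (92.7 ± 48.2 CPM, where 14.2% of genes were lower), *Arc* in cluster 8 (2.48 ± 4.97 CPM, 16.4% of genes), *Nr4a1* in cluster 14 (2.06 ± 3.54 CPM, 5.12%) and *Ier2* in cluster 15 (3.37 ± 5.50 CPM, 4.13%).

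*Dusp1* had the pattern most like the members. Over 73 sums per plate and PVH cluster, the summed CPM of the 10 members was compared with each of 10895 genes by Spearman's rho on log2(CPM + 1), after the mean of each plate had been removed. The summed CPM contains each member and is led by the abundant ones, so the order among members partly follows their level by construction. Among the members themselves *Fos* had the highest rho (0.88), followed by *Jun* (0.82) and *Egr1* (0.76), and *Npas4* the lowest (0.44). Of the other genes, *Dusp1*, which encodes a phosphatase of MAP kinases and is itself an early response gene, came first (0.67). *Krtcap2* (0.61), *Fezf2* (0.61), *Klf4* (0.60), a Krüppel-like factor, and *Ly6e* (0.60) followed. The sums share libraries and depth within a plate.

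The genes around the members moved in both directions between the batches. Of the AP-1 and EGR relatives, 9 of 16 were tested, 3 were higher on the Q plates (*Fosl2*, *Jund* and *Atf5*) and none lower, with a median log2 fold change of 1.22. *Fosl2*, which encodes a further partner of JUN, was at 184 ± 50.3 CPM (SD, n = 4) on the Q plates and 73.3 ± 42.2 CPM (SD, n = 6) on the others (log2 fold change 1.52, SE 0.33, edgeR adjusted p = 0.00298). Of the 34 other early response genes tested, 5 were higher and 6 lower. *Btg2* (log2 fold change 1.88) and *Dusp1* (1.80), an antiproliferative factor and the phosphatase above, led those that were higher with *Klf4* (1.37). *Myc* (-2.77), *Cebpb* (-2.33) and *Sgk1* (-1.83) led those that were lower. Of 14 later activity targets, *Rgs2*, a regulator of G-protein signalling, was higher (0.91) and *Syt4*, a vesicle protein, lower (-0.93).

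The upstream regulators, the kinases and factors that act on these promoters, were split. Of 31 tested, 5 were higher and 6 lower on the Q plates, with a median log2 fold change of -0.07. *Creb1* encodes 1 of the CREB and ATF factors that bind the TGACG half-site, and a link to that motif was not tested. *Creb1* was at 74.6 ± 21.5 CPM on the Q plates (SD, n = 4) and 29.7 ± 4.49 CPM on the others (SD, n = 6), without overlap (log2 fold change 1.55, SE 0.20, edgeR adjusted p = 5.43e-05). Among the ATF genes, *Atf5* passed as given above, whereas *Atf2* (0.10) and *Atf4* (0.01) did not. The kinase gene *Camk2a* (1.51) and *Srf* (1.19) were higher, whereas the kinase gene *Map2k1* (-1.71), *Elk1* (-2.18), which encodes a partner of SRF, and *Crtc2* (-1.30), a coactivator of CREB, were lower. Of 12 heat shock genes tested, which respond to misfolded protein, 5 were higher, with *Hspa1a* (1.93), *Hspe1* (0.99) and *Dnajb1* (0.78) in the lead. The other 2 that passed, *Hspa8* (-1.41) and *Dnaja1* (-1.09), were lower. Read against the 11.6% and 11.1% of all genes in each direction, these lists are descriptions, and the part that depth, dissociation or the mix of clusters had in the batch difference was not tested.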

How the data were processed

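The authors deposited UMI counts of every gene and of every ERCC spike-in in each well, not normalized, a list of well barcodes (the plates with the same number used the same barcodes), and a cell table that gives a cluster number to each cell that passed quality control. Submitters' notes name Trimmomatic 0.36, STAR 2.5.3a and GRCm38.p5, and how UMIs were corrected is not given in the sources used here. Labels and methods differ on sequencer and library kit, and neither says which plates used which.

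Counts were used as deposited and summed per plate, or per plate and cluster with at least 3 cells. Batches were compared with edgeR 4.0.16 (TMM, filterByExpr, robust quasi-likelihood, R 4.3.3, adjusted p threshold 0.05), with DESeq2 1.42.0 as an alternative, and shares with exact two-sided permutation tests (Python 3.11.15, scipy 1.17.1). The methods use DESeq2 across clusters. Nothing ties animals to plates, so p-values measure the spread between plates. Genes with at least 50 UMIs entered the cluster counts. Scripts were tested on simulated data. All members are named, and of other lists up to 3 genes per direction that passed, by fold, with the 5 genes most like the members. The members and lists were chosen with earlier results of these data known. The authors' cluster membership values were not used.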

Additional observations from a re-analysis of the deposited data

Results flagged for a closer look

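Among the plate levels of the 10 members in PVH cells, 20 groups of plates were checked for a plate far from the rest, of which chance alone would mark about 1 in 20, and 1 was marked. *Atf3* on the AL and JM plates was at 3.58 CPM on AL5, at 0.304 CPM on JM7 and at 0 on the other 4 plates. The value of AL5 came from 3 cells, 1 of cluster 1 with 27 UMIs and 2 of cluster 3 with 3 and 5 UMIs.

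Wells outside the cell table also held members. *Atf3* was found in 8 of the 40 control-column wells with RNA, on 6 plates and with 4 to 20 UMIs in a well, against 7 of 664 PVH cells and none of the 40 wells of the same columns without RNA. Apart from the control columns, 104 wells outside the table held 20000 UMIs or more, and 85 of these had a UMI of at least 1 member, with *Jun* and *Junb* in 55 each, *Fos* in 53 and *Snap25* in 98. Of the control wells without RNA, 11 of 40 had such a UMI.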

How the results depend on the processing

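In all PVH cells, *Fos*, *Fosb* and *Npas4* kept direction and call under every alternative run, which were DESeq2, other size factors, no low-count filter, each plate left out, Q against JM plates alone, thinned cells, all cells of the table, PVH clusters other than 1 and a replicate block on the plate number. *Nr4a1* lost its call with total UMIs only (adjusted p = 0.0675) and outside cluster 1 (0.0665), and *Junb* gained one for Q against JM plates (0.0411) and with all cells (0.0445). The log2 fold change of *Egr1* turned to 0.14 in thinned cells and 0.33 outside cluster 1, and that of *Ier2* to -0.028 with total UMIs only. Leaving out each plate gave 2737 to 3271 called genes, 3 to 5 called members, *Egr1* at -0.35 to 0.058 and *Ier2* at -0.000185 to 0.32. Plates of the same number did not vary together (correlations of their deviations from -0.113 to 0.042), so the block rests on a number alone. The replicate block gave 2987 called genes in all PVH cells and 1164 in cluster 1, against 3254 and 1316, and *Nr4a1* lost its call (adjusted p = 0.0969).

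In cluster 1, 3 members passed with DESeq2, 2 with total UMIs only, 2 for Q against JM plates and 0 without a low-count filter, and 1 to 2 with a plate left out (2 without AL6, JM5 or JM8). The interaction called 0 genes with total UMIs only and 0 to 3 without a plate, and there *Fos* ran from -0.23 to 0.56, turning in 2 fits, and *Junb* from -0.43 to 0.37, turning in 4. For shares of cells, 1 member passed in thinned cells, and the difference in members per cell lost its call (0.84). The *Jun* share turned to -10.1 points in thinned cells and ran from -1.18 to 1.86 without a plate. The *Egr1* share turned to 2.67 points for Q against JM plates and ran from -4.86 to 2.72 without a plate. The *Atf3* share turned to 0.38 points at 3 UMIs or more, 0.34 in thinned cells, 0.45 for Q against JM plates, and ran from -0.60 to 0.57 without a plate. The *Fos* share lost its call without any 1 Q plate (adjusted p = 0.0595 each, where 3 plates against 6 were compared). By cluster, the AL and JM plates alone gave 2 higher and 10 lower pairs, where fewer clusters reached 4 plates, and sums of at least 5 cells gave 4 lower ones. Without a plate there were 9 to 14 higher and 11 to 25 lower pairs, the 11 without Q5, in fits added after the data had been seen. The genes most like the members shared 3 of 5 without removal of the plate mean and 3 of 5 with a pseudocount of 10. The limit of 1000 UMIs for wells without RNA was also set after the data had been seen. The *Atf3* values rest on 75 UMIs in all PVH cells together.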

Other observations

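The control-column wells with RNA had a makeup of members unlike that of the cells. *Ier2* was found in all 40, at 297 ± 89.6 CPM on the Q plates (SD, n = 4) and 702 ± 236 CPM on the others (SD, n = 6, exact permutation test, p = 0.0143, adjusted over 10 members 0.143), whereas PVH cells of the 2 batches held 20.1 and 20.4 CPM. *Junb* was also found in all 40 and *Egr1* in 36, but *Arc* in 4 and *Npas4* in 1.

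Cluster 6, which is not a PVH cluster, was on 5 plates. Its *Fos* was at 907 ± 435 CPM on 3 Q plates and at 63.5 ± 33.6 CPM on 2 others, and its *Npas4* at 162 ± 56.0 and 13.1 ± 18.5 CPM, with no test made for so few plates.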
